A study of Homo sapiens with 4 samples.

Results

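The alpha- and gamma-tubulin genes were described in paclitaxel-sensitive and paclitaxel-resistant anaplastic thyroid cancer (ATC) cells. The genes were taken by name: TUBA1A, TUBA1B, TUBA1C, TUBA4A and TUBA8 for alpha-tubulin, and TUBG1 and TUBG2 for gamma-tubulin. All 7 were found among the 26485 gene names of the tables, and the rule uses names only, not measured values. mRNA was sequenced from SW1736 and 8505C, both established human ATC lines, each as wild-type (wt) cells that received no paclitaxel and as resistant (PTX) cells. To obtain PTX cells, the dose of paclitaxel was raised over 6 months between 1 nM and 1.5 µM, and 1.5 µM stayed in their medium, so that resistance and the presence of the drug cannot be told apart. Each of the 4 conditions had 1 library, so the spread between cultures is not known and p-values were not computed, and the 2 lines were not treated as replicates of each other. In such bulk samples, fewer cells expressing a gene and less of its RNA per cell cannot be told apart.

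Microtubules are polymers of alpha-tubulin and beta-tubulin, which are folded by the CCT chaperonin, joined into a dimer by the tubulin cofactors and added head to tail. Paclitaxel binds the beta subunit inside the microtubule and stabilizes the polymer. Gamma-tubulin does not form the microtubule wall but sits in a ring complex that starts new microtubules at the centrosome and along the spindle. Alpha-tubulin also carries most of the known chemical marks of microtubules, among them the removal and return of its last residue, a tyrosine in most isotypes.

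The libraries held between 43.5 and 57.9 M reads, estimated from the ratio of coverage to FPKM (the authors' level per gene length, scaled to the aligned fragments of the library). Changes are given as log2((PTX + 0.1)/(wt + 0.1)) on FPKM, a scale that understates the change of genes with low levels. A gene was compared when 1 library of the pair was above 0.5 FPKM, and was called when its log2 change was beyond 1.5 in either direction, which is a change of 2.83-fold or more. The library labelled SW1736-PTX stood apart from its own parent. Over 14692 genes its log2 levels had a Pearson r of 0.767 with SW1736 wt, 0.873 with 8505C wt and 0.933 with 8505C-PTX. NKX2-1, a transcription factor of thyroid cells, had 36.3 FPKM in SW1736-PTX, 30.5 in 8505C wt and 39.0 in 8505C-PTX but was listed at 0 in its parent SW1736 wt. PAX8, another, had 38.2 FPKM in SW1736 wt, against a range between 0.123 and 0.206 over the other 3 libraries. The SW1736 changes of the tubulin genes, of their sums and of the other genes whose calls are described are therefore also given for SW1736-PTX against 8505C wt, which shares its PTX library with the first comparison and its wt library with the comparison in 8505C. Of the thyroid markers read, TSHR and SLC5A5, the receptor and the iodide transporter of thyroid cells, were listed at 0 in all 4 libraries. The 5 neuron markers, read because TUBA1A is best known from neurons, summed to between 0.17 and 7.22 FPKM, with only MAP2 above 0.5, in the PTX libraries, and with STMN2 and DCX listed at 0 throughout. The 4 ciliated cell markers summed to at most 0.163 FPKM.

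The coding ends of TUBA1C, TUBA4A and TUBA8 are shown because they encode the tail of the protein and its last residue, where the isotypes differ most. The last 45 coding bases of these genes, with the stop codon, were read on hg38 for the principal transcript in GENCODE release 44, all within the last exon, and the last codon before the stop is in capitals.
TUBA1C (chr12:49273183-49273227, plus strand): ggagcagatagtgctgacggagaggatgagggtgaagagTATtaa
TUBA4A (chr2:219250352-219250396, minus strand): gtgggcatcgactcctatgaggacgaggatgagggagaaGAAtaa
TUBA8 (chr22:18131092-18131136, plus strand): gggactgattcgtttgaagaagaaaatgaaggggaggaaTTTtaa
TUBA1C ends in TAT, a codon of tyrosine. TUBA4A ends in GAA, a codon of glutamate, so its protein is made without the final tyrosine. TUBA8 ends in TTT, a codon of phenylalanine. Both gamma-tubulin genes end in CAG, a codon of glutamine. Over the whole coding sequence, TUBA1A was identical to TUBA1B at 97.2% of aligned bases and to TUBA1C at 96.3%, while TUBA4A was identical to the TUBA1 genes at 85.0% to 86.3% and TUBA8 at 80.2% to 81.1%. TUBG1 and TUBG2 were identical at 94.7%.

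This likeness limits how far reads of 75 bases can be told apart. Of the windows of 75 bases in the transcript of each gene, 33.0% in TUBA1A, 77.2% in TUBA1B and 36.5% in TUBA1C also occurred in a transcript of another gene. That gene need not be a tubulin. Of the 1199 shared windows of TUBA1B, 1034 occurred in TUBA1B-AS1. For TUBA1C, 564 of 1003 occurred in a gene without a symbol. For TUBA1A, 407 of 528 occurred in TUBA1B. TUBG1 shared 20.4% of its windows and TUBG2 18.3%, all with each other. Within 2 mismatches of another of the 7 genes lay 62.8% of the windows of TUBA1A, 75.9% of those of TUBA1B and 40.05% of those of TUBA1C. How the authors' tools divided such reads is not given in the sources used here. The levels of TUBA1A, TUBA1B and TUBA1C relative to one another, and of TUBG1 relative to TUBG2, are therefore uncertain. These shares do not measure by how much.

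The TUBA1 genes lie side by side on chromosome 12 of hg38, with TUBA1B at chr12:49127784-49131521 and TUBA1A at chr12:49184795-49189324 on the minus strand, and TUBA1C at chr12:49227926-49273338 on the plus strand. TUBA1B, the alpha-tubulin that most dividing cells use, was the most abundant of the 7 genes in every library. Its level was 1318 FPKM in wt and 700.4 in PTX cells of SW1736, and 1334 in wt and 676 in PTX cells of 8505C. Both PTX libraries lay below both wt libraries, which were nearly equal. The log2 change was -0.91 in SW1736 and -0.98 in 8505C, neither past the limit, and -0.93 for SW1736-PTX against 8505C wt.

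TUBA1C, a close relative that is also widely expressed, was the next in level, at 746 FPKM in wt and 382 in PTX cells of SW1736, and 884 in wt and 355 in PTX cells of 8505C. Here too both PTX libraries lay below both wt libraries. The log2 change was -0.96 in SW1736 and -1.32 in 8505C, neither past the limit, and -1.21 for SW1736-PTX against 8505C wt. The level of TUBA1C depends on the column read. Its read coverage per FPKM was 0.257 of the ratio that most entries of the same library had, in each of the 4 libraries, against 1.00 for TUBA1B, and a ratio under 0.3 was seen for between 5.04% and 5.28% of entries above 0.5 FPKM. On the coverage scale TUBA1C came to 192, 98.2, 227 and 91.1 FPKM in the order above. The factor was the same in every library, so it left the changes of TUBA1C as they are. For TUBA1A the ratio was 0.839, 0.808, 0.878 and 0.793 in that order, which gives 38.7, 105, 36.8 and 137 FPKM on the coverage scale. The rise of TUBA1A was therefore somewhat smaller on that scale. For TUBA4A the ratio was between 0.80 and 0.81.

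TUBA1A, the alpha-tubulin best known from developing neurons, went the other way. It was at 46.1 FPKM in wt and 130 in PTX cells of SW1736, and 41.9 in wt and 173 in PTX cells of 8505C. Both PTX libraries were above both wt libraries, and the 95% counting intervals of the wt libraries, 44.7 to 47.6 and 40.4 to 43.4 FPKM, were far from those of the PTX libraries, 128 to 132 and 170 to 175. These intervals come from reads estimated from FPKM, transcript length and depth, and cover counting error only. TUBA1A rose in 8505C, by a log2 change of 2.04 (4.11-fold). In SW1736 its log2 change was 1.49 (2.81-fold), just inside the limit of 1.5, and against 8505C wt it was 1.63, past the limit. The defining neuron markers STMN2 and DCX were listed at 0 in all libraries, while MAP2, a microtubule-associated protein of neurons, was at 0.351 FPKM in wt and 2.38 in PTX cells of SW1736, and 0.0312 in wt and 7.06 in PTX cells of 8505C.

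TUBA4A, at chr2:219249711-219254608 on the minus strand, differed most among libraries. It was at 75.01 FPKM in wt and 7.58 in PTX cells of SW1736, and 5.32 in wt and 1.11 in PTX cells of 8505C, a range of 5.96 on the log2 scale against 0.79 to 2.04 for the other 6 genes. TUBA4A fell in SW1736, with a log2 change of -3.29 (9.78-fold lower), and in 8505C, with a log2 change of -2.17 (4.49-fold lower). The change in SW1736 depended on the wt library it was read against, since SW1736-PTX stood above 8505C wt with a log2 change of 0.50. The high level in SW1736 wt was thus seen in that library alone, and the decrease in 8505C took place at a low level, from about 475 reads to about 122. TUBA4A overlaps STK16 by 627 bases and TUBA4B by 1366 bases on the opposite strand, and the strand setting of the counting is not given in the sources used here. In SW1736, STK16 had 4.12 FPKM in wt and 8.25 in PTX cells, and TUBA4B had at most 0.291.

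TUBA8, at chr22:18110687-18131731 on the plus strand, was below 0.5 FPKM in every library and was not compared. It stood at 0.360 FPKM in wt and 0.232 in PTX cells of SW1736, and 0.0765 in wt and 0.251 in PTX cells of 8505C, which is about 35, 27, 7 and 27 reads. The 95% counting intervals of all but 8505C wt overlapped one another, and that of 8505C wt, from 0.0299 to 0.160 FPKM, lay below those of SW1736 wt and 8505C-PTX. Of its windows of 75 bases, 96.3% also occurred in other annotated transcripts at the locus. The 5 other alpha-tubulin genes by name were lower still or at 0 in most libraries: TUBA3C was at most 0.463 FPKM, TUBA3D 0.488, TUBA4B 0.291, TUBA3E 0.102 and TUBAL3 0.0271.

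**Figure D1:**
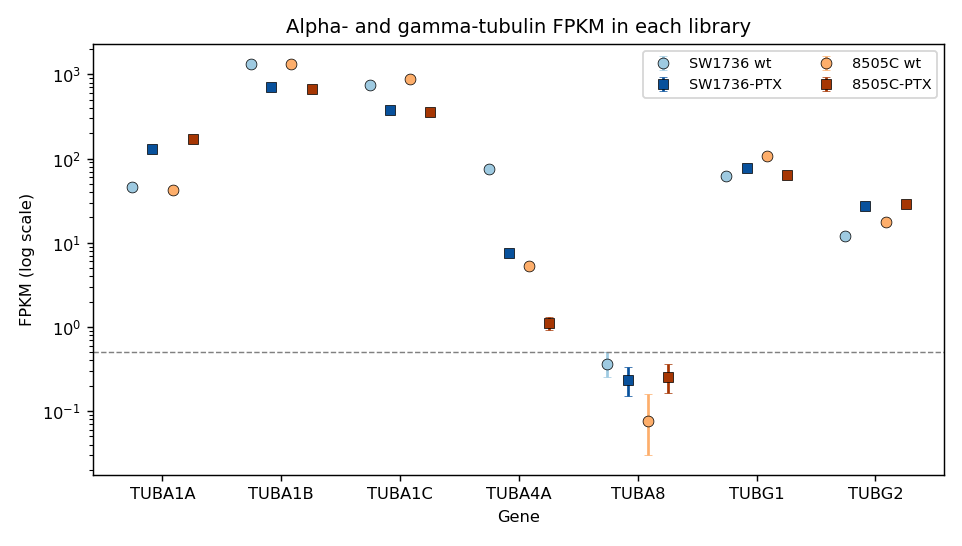
FPKM of the 7 alpha- and gamma-tubulin genes (log axis) in each of the 4 libraries, with 95% counting intervals as bars and the minimum of 0.5 FPKM as a dashed line. TUBA1B and TUBA1C are highest and lower in both PTX libraries, TUBA1A and TUBG2 are higher in both PTX libraries, TUBA4A runs from 75.01 down to 1.11 FPKM, and TUBA8 stays under the line.

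Summed over its 5 genes, alpha-tubulin came to 2185 FPKM in wt and 1220 in PTX cells of SW1736, and 2266 in wt and 1205 in PTX cells of 8505C. The sum in PTX cells was 55.8% of that in wt cells in SW1736 and 53.2% in 8505C, log2 changes of -0.84 and -0.91, and -0.89 for SW1736-PTX against 8505C wt. As a share of all TPM (the same level set to an equal total per library), alpha-tubulin was 0.498%, 0.269%, 0.518% and 0.268% in the same order. The 9 beta-tubulin genes, whose proteins pair with alpha-tubulin, summed to 2189, 1218, 1659 and 861 FPKM, with log2 changes of -0.85 in SW1736 and -0.95 in 8505C. For SW1736-PTX against 8505C wt the beta sum was at -0.45, a smaller decrease than that of the alpha sum. The ratio of the alpha to the beta sum was 0.998 in wt and 1.00 in PTX cells of SW1736, and 1.37 in wt and 1.40 in PTX cells of 8505C. It therefore differed between the lines more than between wt and PTX cells, and on this measure SW1736-PTX was at the value of its own parent. Both the alpha sums and these ratios include TUBA1C at its FPKM, which is larger than its coverage gives.

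The composition of the alpha-tubulin mRNA moved towards TUBA1A. By FPKM, TUBA1A made up 2.11% of the sum in SW1736 wt (95% Wilson score interval 2.05% to 2.18%), 10.7% in SW1736-PTX (10.5% to 10.8%), 1.85% in 8505C wt (1.78% to 1.91%) and 14.3% in 8505C-PTX (14.1% to 14.5%). The intervals come from estimated reads, were scaled to the FPKM share and cover counting error only. TUBA1B held 60.3%, 57.4%, 58.9% and 56.1%, and TUBA1C held 34.1%, 31.3%, 39.0% and 29.4%. TUBA4A held 3.43% in SW1736 wt, 0.621% in SW1736-PTX, 0.235% in 8505C wt and 0.0920% in 8505C-PTX, and TUBA8 at most 0.0208%. On the coverage scale, where TUBA1C counts for less, TUBA1B held 74.7% to 83.3% and TUBA1C 10.1% to 14.2%, while TUBA1A held 2.41%, 11.6%, 2.29% and 15.1%. The order of the libraries for TUBA1A was the same on both scales, with the PTX libraries well above the wt libraries. The level of TUBA1B was 28.6 times that of TUBA1A in SW1736 wt and 31.9 times in 8505C wt, against 5.39 times in SW1736-PTX and 3.92 times in 8505C-PTX. TUBA1A passed TUBA4A in SW1736, from 0.615 times its level in wt cells to 17.2 times in PTX cells. In 8505C it was above TUBA4A already in wt cells, at 7.87 times, and at 156 times in PTX cells. The crossing in SW1736 thus rests on the high TUBA4A of SW1736 wt.

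**Figure D2:**
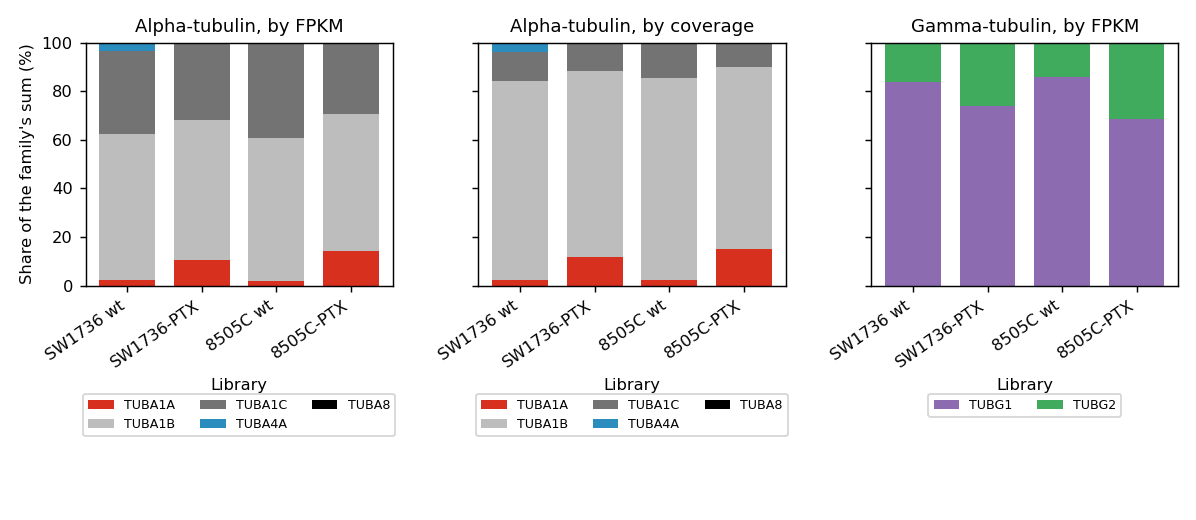
Stacked bars of the share (%) of each gene in the summed alpha-tubulin level by FPKM and by coverage, and in the summed gamma-tubulin level by FPKM, for the 4 libraries. The share of TUBA1A by FPKM is 2.11% and 1.85% in wt cells and 10.7% and 14.3% in PTX cells, TUBA1C shrinks on the coverage scale, and TUBG2 takes 26.0% and 31.3% of gamma-tubulin in PTX cells against 16.3% and 14.1% in wt cells.

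TUBG1 and TUBG2 lie close together on chromosome 17 of hg38, at chr17:42609340-42615238 and chr17:42659248-42667006 on the plus strand. TUBG1, the gamma-tubulin that most dividing cells rely on, was at 61.7 FPKM in wt and 77.1 in PTX cells of SW1736, and 107 in wt and 63.1 in PTX cells of 8505C. The levels of wt and PTX cells overlapped, and the lowest, SW1736 wt, and the next, 8505C-PTX, did not differ beyond their counting intervals. The log2 change was 0.32 in SW1736, -0.76 in 8505C and -0.47 for SW1736-PTX against 8505C wt, none past the limit. TUBG1 overlaps FAM134C by 88 bases on the opposite strand.

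TUBG2, the second gene, best known from brain, was at 12.0 FPKM in wt and 27.0 in PTX cells of SW1736, and 17.6 in wt and 28.7 in PTX cells of 8505C. Both PTX libraries were above both wt libraries and had overlapping counting intervals. The log2 change was 1.16 in SW1736, 0.70 in 8505C and 0.62 for SW1736-PTX against 8505C wt, again none past the limit. The ratio of TUBG1 to TUBG2 was 5.14 in wt and 2.85 in PTX cells of SW1736, and 6.08 in wt and 2.20 in PTX cells of 8505C. The gamma-tubulin sum was 73.8, 104, 124 and 91.8 FPKM in the same order, with log2 changes of 0.50 in SW1736 and -0.44 in 8505C. Its sign in SW1736 depended on the wt library, since SW1736-PTX against 8505C wt gave -0.26. The alpha-tubulin sum was 29.6 times the gamma-tubulin sum in SW1736 wt, 11.7 times in SW1736-PTX, 18.2 times in 8505C wt and 13.1 times in 8505C-PTX.

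Of the 7 genes, 6 passed the FPKM minimum, TUBA8 being the exception. In SW1736, none of the 6 rose and 1, TUBA4A, fell, where 15.7% of all 14202 genes compared were called higher and 10.2% lower. In 8505C, 1 rose, TUBA1A, and 1 fell, TUBA4A, where 15.0% of 13794 genes were called higher and 5.89% lower. For SW1736-PTX against 8505C wt, TUBA1A alone was called, with 15.1% of 13824 genes called higher and 5.23% lower. At a log2 limit of 1, TUBA1A and TUBG2 were higher and TUBA4A lower in SW1736, beside 22.1% and 18.2% of all genes. At that limit TUBA1A was higher and TUBA1C and TUBA4A lower in 8505C, beside 22.5% and 12.9%. Both PTX libraries were above both wt libraries for 2 of the 6 genes, TUBA1A and TUBG2, and below them for 2, TUBA1B and TUBA1C, where the shares of all 14692 expressed genes were 31.6% and 26.5%. With 6 genes, counts of 1 or 2 are near these background shares. The median log2 change of the 6 was -0.30 in SW1736 and -0.87 in 8505C, beside 0.01 and 0.11 over all genes compared. Relative to that median, the alpha-tubulin sum was at -0.85 in SW1736 and -1.02 in 8505C.

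Since the 3 TUBA1 genes are neighbours that moved apart, the 250 bases before their principal transcription starts are shown, from RefSeq on GRCh38.p14. Capitals mark, on either strand, the GC box GGGCGG, the CCAAT box CCAAT, the cell cycle element TTTGAA and the E-box CACGTG, and the TATA box TATAAA was also searched.
TUBA1A promoter (chr12:49189081-49189330, minus strand): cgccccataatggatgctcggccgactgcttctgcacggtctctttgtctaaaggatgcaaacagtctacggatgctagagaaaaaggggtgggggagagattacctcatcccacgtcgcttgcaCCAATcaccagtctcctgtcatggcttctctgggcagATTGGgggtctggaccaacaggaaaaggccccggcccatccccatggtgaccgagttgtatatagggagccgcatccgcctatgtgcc
TUBA1B promoter (chr12:49131396-49131645, minus strand): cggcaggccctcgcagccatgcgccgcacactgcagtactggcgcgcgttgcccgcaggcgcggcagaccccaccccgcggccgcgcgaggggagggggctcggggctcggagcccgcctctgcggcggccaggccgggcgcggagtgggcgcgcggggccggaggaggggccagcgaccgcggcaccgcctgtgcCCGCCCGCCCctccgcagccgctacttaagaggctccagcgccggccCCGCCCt
TUBA1C promoter (chr12:49264832-49265081, plus strand): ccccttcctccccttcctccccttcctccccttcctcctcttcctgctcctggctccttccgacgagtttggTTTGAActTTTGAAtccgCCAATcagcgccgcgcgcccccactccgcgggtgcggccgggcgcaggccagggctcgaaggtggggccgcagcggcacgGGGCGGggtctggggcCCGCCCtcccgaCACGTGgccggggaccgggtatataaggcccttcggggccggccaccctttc
The TUBA1A promoter held no GGGCGG and 2 matches to CCAAT, and 56.4% of its bases were G or C. The TUBA1B promoter held 3 matches to GGGCGG, 2 of them overlapping, and 81.2% of its bases were G or C. The TUBA1C promoter held 2 matches to GGGCGG, 1 to CCAAT, 2 to TTTGAA and 1 to CACGTG. No promoter of the 7 genes held the exact letters TATAAA. Variants of that box were not searched, and the TUBA1A and TUBA1C windows above hold TATATA. Of 34943 promoters of this length, 42.6% held GGGCGG, 32.0% CCAAT, 13.4% TTTGAA, 10.8% TATAAA and 6.32% CACGTG on either strand. TUBG1 held 1 GGGCGG and 1 CCAAT, and TUBG2 held 1 CCAAT and 1 CACGTG. These matches describe the letters of the windows and were not tested as binding sites.

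The genes around both loci were read to see whether the members moved with their neighbourhood. Within 100 kb of the TUBA1 genes, 8 other genes were above 0.5 FPKM in at least 1 library. Of these, 4 were higher in PTX cells in each line, 3 were higher in both and 3 lower in both, with median log2 changes of 0.05 in SW1736 and 0.20 in 8505C. C1QL4, a C1q-like secreted protein, rose in both lines, with log2 changes of 2.51 and 2.26, and 2.30 for SW1736-PTX against 8505C wt. TROAP, a spindle-associated protein, fell in SW1736, with a log2 change of -1.62, and was at -0.91 in 8505C. That call was lost against 8505C wt, where TROAP was at -0.60. Next to TUBA1C, PRPH, which encodes the intermediate filament peripherin, was listed at 0 in wt and had 0.753 FPKM in PTX cells of SW1736, and had 0.0999 in wt and 0.596 in PTX cells of 8505C. Around TUBG1 and TUBG2, 11 other genes were above the minimum, of which 10 were higher in PTX cells in SW1736 and 8 in 8505C, with medians of 1.01 and 0.37, beside 50.3% and 54.3% of all genes compared being above 0. The count and median in SW1736 depended on the wt library. Against 8505C wt, SW1736-PTX was lower for most of these neighbours, with CNTNAP1 at -0.07 in place of 1.31. That was not so for EZH1, at 1.25 in place of 1.23, or for PLEKHH3, at 1.21. Next to TUBG2, PLEKHH3 was at 1.01 in SW1736 and 0.94 in 8505C. TUBG2 itself was near the median of its neighbours in SW1736, at 1.16, and above it in 8505C, at 0.70, whereas TUBG1 was below the median in both. PLEKHH3, CNTNAP1 and EZH1 were named after their values were seen.

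**Figure D3:**
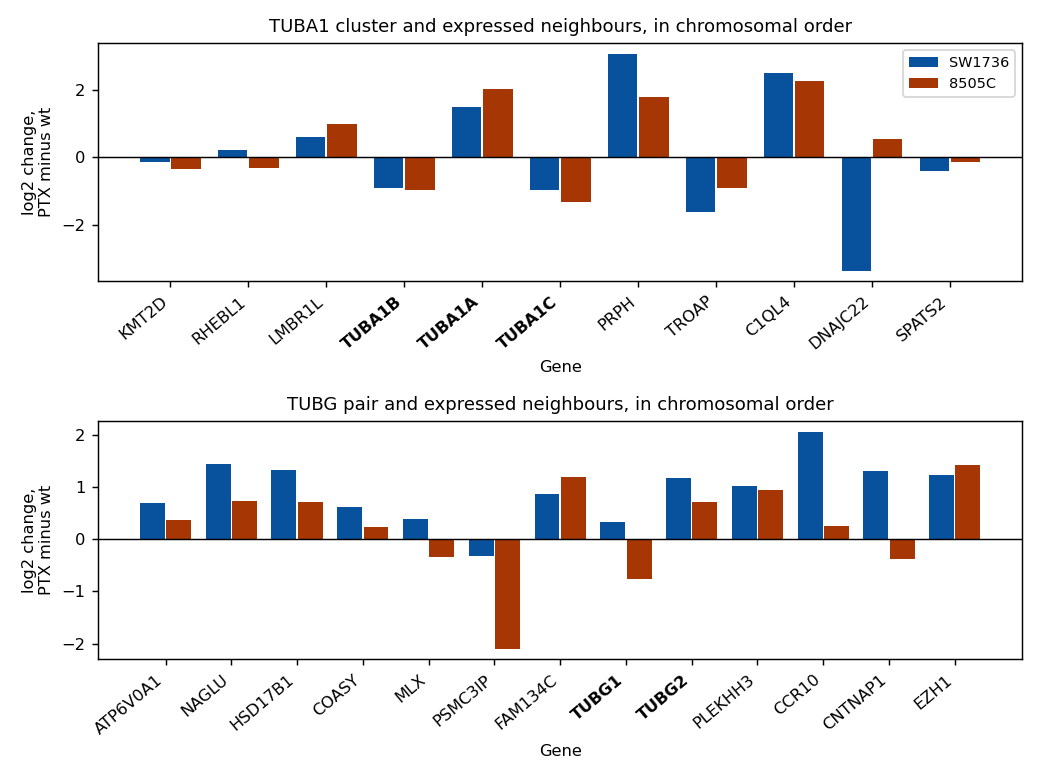
Log2 change in SW1736 and 8505C (bars from 0) of the TUBA1 genes, of TUBG1 and TUBG2 (bold names) and of the expressed genes within 100 kb, in chromosomal order. TUBA1A is up between TUBA1B and TUBA1C, which are both down, and 10 of 11 neighbours of the TUBG genes are above 0 in SW1736-PTX against SW1736 wt.

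Genes of tubulin folding and of the control of tubulin mRNA were read next. None of the 9 genes listed with the cofactors and dimer assembly was called in either line, with medians of 0.22 in SW1736 and -0.03 in 8505C. Of all genes compared, 15.7% were called higher and 10.2% lower in SW1736, and 15.0% and 5.89% in 8505C. With 9 genes, this is a difference of a few genes from the background. The highest change was that of SCAPER in SW1736, at 0.97, and of TBCEL, a cofactor-like gene, in 8505C, at 0.54, and the lowest was that of TTC5 in both, at -0.67 and -0.43. SCAPER and TTC5 take part in the tubulin autoregulation pathway, in which cells degrade tubulin mRNA when free dimers are in excess. Of the 14 genes of the CCT chaperonin and its partner prefoldin, 12 were below 0 in SW1736 and 13 in 8505C, with medians of -0.35 and -1.13, beside 49.7% and 45.7% of all genes compared being below 0. For SW1736-PTX against 8505C wt, 13 were below 0, with a median of -0.90, so the median in SW1736 depended on the wt library. In SW1736, only VBP1, a prefoldin subunit, was called lower (log2 change -1.84), and in 8505C the CCT subunits CCT5, CCT6A and TCP1 were (-1.74, -1.90 and -1.64), beside 10.2% and 5.89% of all genes called lower. The call of VBP1 was lost against 8505C wt, at -0.94, and CCT6A, CCT8 and TCP1 were called lower there instead (-1.52, -1.66 and -1.67). CCT5 was at 0.13 in SW1736, so that subunit went to the other side of 0 there, but it was at -1.20 against 8505C wt. PFDN5, another prefoldin subunit, had the highest change of the list in both lines, at 0.37 and 0.54.

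Of 27 enzymes that modify tubulin, 26 were in the tables, and 5 rose and 1 fell among 17 compared in SW1736, while 4 rose and none fell among 18 in 8505C, beside background shares of 15.7% higher and 10.2% lower in SW1736 and 15.0% and 5.89% in 8505C. With 17 or 18 genes, this is a difference of a few genes from the background. VASH1, which removes the final tyrosine of alpha-tubulin, was at 1.03 FPKM in wt and 7.35 in PTX cells of SW1736, and 0.791 in wt and 9.67 in PTX cells of 8505C. It rose in both lines, with log2 changes of 2.72 and 3.45, and was at 3.06 for SW1736-PTX against 8505C wt. TTL, which puts that tyrosine back, had levels of 22.8, 10.3, 20.0 and 8.37 FPKM in that order, with log2 changes of -1.14 and -1.24, short of the limit, and -0.94 for SW1736-PTX against 8505C wt. TTLL1, a polyglutamylase, rose in both lines, with log2 changes of 2.70 and 3.95, as did TTLL3, a glycylase, with 1.84 and 3.58, and against 8505C wt SW1736-PTX was at 4.04 for the first and 3.53 for the second. VASH2, a relative of VASH1, was listed at 0 in wt and had 0.701 FPKM in PTX cells of SW1736, and had 0.264 in wt and 0.818 in PTX cells of 8505C. Its log2 change for SW1736-PTX against 8505C wt was 1.14, short of the limit. ATAT1, the acetyltransferase of alpha-tubulin, had 4.43 FPKM in wt cells of SW1736 and was listed at 0 in their PTX cells, and had 1.42 in wt and 2.70 in PTX cells of 8505C. SW1736-PTX against 8505C wt gave -3.92 for ATAT1, a size that depends on the pseudocount. These levels are of mRNA, and no tubulin mark was measured.

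For gamma-tubulin, 23 genes of the ring complex, its recruitment factors and augmin, which brings the complex to spindle microtubules, were compared. None rose and 4 fell in SW1736, and none rose and 4 fell in 8505C, beside the background shares of 10.2% and 5.89% called lower. Of the 23, 17 and 16 were below 0, with medians of -0.57 and -0.71, beside 49.7% and 45.7% of all genes below 0. Against 8505C wt, SW1736-PTX had 3 called lower, HAUS6, MZT1 and NIN, and 1 called higher, AKAP9. HAUS6, an augmin subunit, and MZT1, a small subunit of the ring complex, fell in both lines. HAUS6 was at 15.0 FPKM in wt and 2.45 in PTX cells of SW1736, and 10.1 in wt and 2.14 in PTX cells of 8505C, log2 changes of -2.57 and -2.18, and -1.99 for SW1736-PTX against 8505C wt. MZT1 was at 16.7, 4.19, 21.8 and 3.95 FPKM, log2 changes of -1.97 and -2.44, and -2.35 against 8505C wt. The highest change was that of HAUS4, also of augmin, at 1.01 and 1.21. Of 11 other tubulin genes, 8 were compared in SW1736 and 9 in 8505C. Only TUBB4A, a beta-tubulin of the nervous system, was called, higher in both lines, beside 15.7% and 15.0% of all genes called higher. It was listed at 0 in wt and at 2.05 FPKM in PTX cells of SW1736, and at 0.294 in wt and 1.72 in PTX cells of 8505C. Against 8505C wt, TUBB4A was at 2.45 in SW1736-PTX. TUBB2B was called lower in that comparison, at -7.58, a size that depends on the pseudocount. It was listed at 0 in both SW1736 libraries, and had 19.1 FPKM in wt and 12.4 in PTX cells of 8505C. Within the lines, the lowest changes were those of TUBB6 in SW1736 (-1.07) and TUBB4B in 8505C (-1.32), abundant beta-tubulins of dividing cells.

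Markers of proliferation were lower in PTX cells, as was the alpha-tubulin sum. All 6 were below 0 in both lines, beside 49.7% of all genes compared in SW1736 and 45.7% in 8505C. Their sum was 872 FPKM in wt and 313 in PTX cells of SW1736, and 817 in wt and 271 in PTX cells of 8505C. Of the 6, 3 were called lower in SW1736 and 4 in 8505C, beside 10.2% and 5.89% of all genes compared. MKI67, which marks cycling cells, fell in both lines, with log2 changes of -2.46 and -1.80, as did PCNA, the sliding clamp of DNA replication, with -1.89 and -1.69. For SW1736-PTX against 8505C wt, MKI67 was at -1.65, still past the limit, and PCNA was at -1.31, so that its call was lost. The part of cell cycling in the levels of TUBA1B, TUBA1C and the ring complex genes was not tested.

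**Figure D4:**
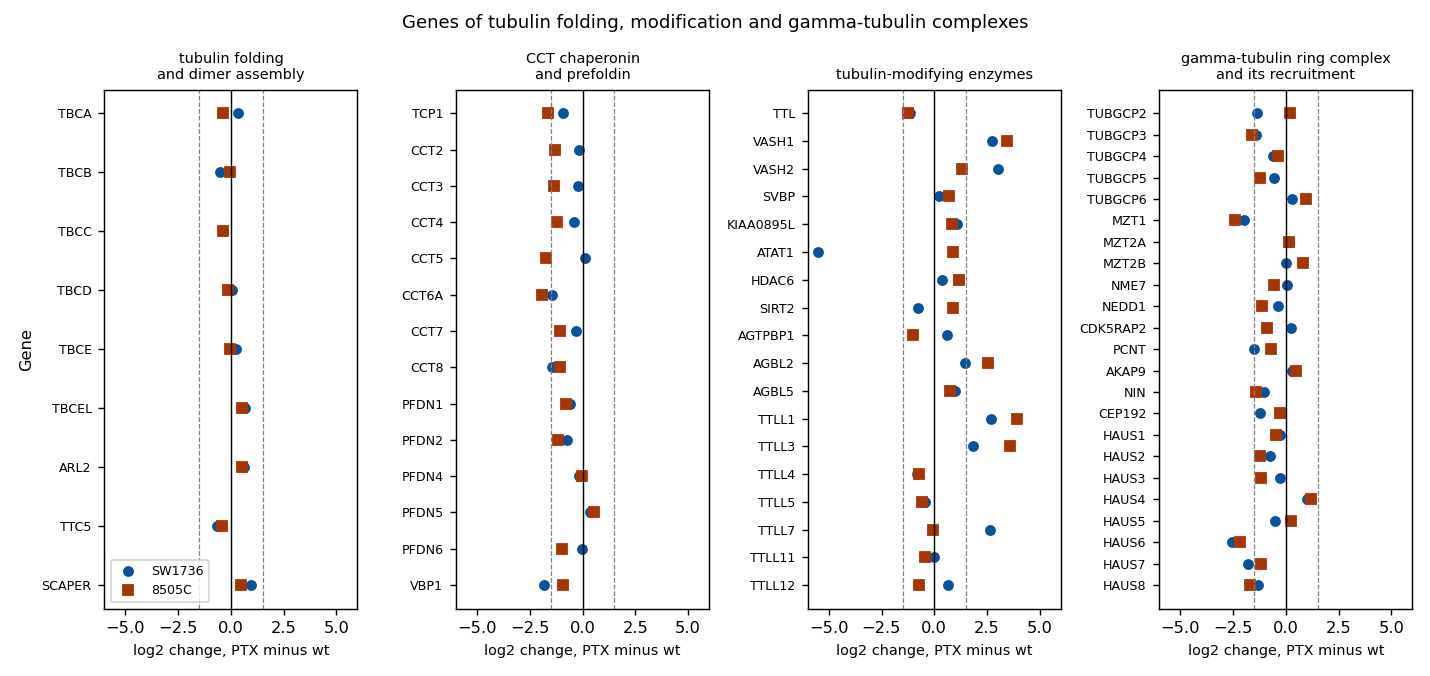
Log2 change in SW1736 (circles) and 8505C (squares) of the genes compared in either line from the lists of tubulin folding, CCT and prefoldin, tubulin modification and the gamma-tubulin ring complex, with the limits of 1.5 and -1.5 dashed. CCT and prefoldin genes and ring complex genes lie mostly left of 0, with HAUS6 and MZT1 beyond the limit in both lines, and VASH1, TTLL1 and TTLL3 lie beyond the limit on the right.

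Genes with the most similar pattern were sought among 10331 genes above 1 FPKM in every library, by the root mean square difference of log2(FPKM + 0.1) over the 4 libraries after centring each gene on its mean. For TUBA1A these were DYRK1B, a protein kinase, at a difference of 0.042, and PGAP3, at 0.059. DYRK1B was at 1.52, 4.50, 1.30 and 5.60 FPKM in SW1736 wt, SW1736-PTX, 8505C wt and 8505C-PTX. For TUBA1C they were UBR7 (0.013) and DHX9, an RNA helicase (0.017), and for TUBG2 CC2D2A (0.027) and CASP9, a caspase (0.038). For TUBA8 they were MAGED2 (0.051) and U2AF1L4 (0.053), although its own levels were under the minimum. TUBA4A had no close match: L1CAM, a cell adhesion molecule, came nearest at 0.44, with 121, 5.31, 4.55 and 1.01 FPKM, and OXTR, the oxytocin receptor, next at 0.55. With 4 libraries and so many genes, small differences are found for most patterns.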

How the data were processed

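One mRNA library each of SW1736 wt, SW1736-PTX, 8505C wt and 8505C-PTX was analysed. According to the methods and the submitters' processing notes, reads (single-end, 75 bp) were demultiplexed with bcl2fastq 2.20, masked with Cutadapt, trimmed with ERNE, aligned to hg38 with STAR and quantified with StringTie. The versions of the last 3, the annotation and the strand setting are not given in the sources used here. The deposited coverage is the mean signal per base of a gene, which the authors did not scale to depth. The FPKM deposited by the authors is scaled to length and depth, and the deposited TPM is the same quantity set to an equal total per library. No read counts were used, and every column was mapped to its library (0 unmapped). Depth was 48.9, 57.9, 43.5 and 53.6 M reads in the order above.

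Entries of one gene name were summed, and changes were computed with a pseudocount of 0.1. The limits of 0.5 FPKM and 1.5 (log2) are those of the methods, and applying the first to at least 1 library of a pair was a choice made here. The calls were run on simulated data with counting noise only and planted changes well past the limit. The spread between cultures and shared reads were not simulated, so that run cannot speak to them. Counting intervals (95%) rest on estimated reads and cover counting error only. The members, gene lists and tests were chosen with earlier results of these data known. Named were the 7 members, the 5 other alpha-tubulin names, the genes of each list called in both lines or at its extremes, expressed genes within 100 kb, and the 2 genes most like each member whose log2 level spanned more than 1. MATCAP1 was matched as KIAA0895L and TTLL13 as TTLL13P, while TTLL8 was not used here. Of the 11 neighbours of TUBG1 and TUBG2 and the 8 of the TUBA1 genes, a few are given by name. Coding ends and shared windows used GENCODE release 44 on hg38, and promoters used RefSeq. A marker gene and some coding ends are not reported here. Alternatives changed the pseudocount, unit, centring, minimum, limit, wt library, share denominator and handling of repeated names. Python 3.11.15, NumPy 2.4.6, pandas 2.3.3, SciPy 1.17.1 and matplotlib 3.10.9 were used.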

Additional observations from a re-analysis of the deposited data

Results flagged for a closer look

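In the 4 results flagged here the lines moved in opposite directions, with 1 library on each side. In none of them was the difference between the lines tested. Other genes of the lists also moved in opposite directions, such as CCT5, at 0.13 in SW1736 and -1.74 in 8505C, so the 4 are not all such results. TUBG1 had a log2 change of 0.32 in SW1736 and -0.76 in 8505C, a difference (8505C minus SW1736) of -1.08. The gamma-tubulin sum, most of which is TUBG1, had 0.50 and -0.44, a difference of -0.94. Both differences shrink when SW1736-PTX is set against 8505C wt, which gives -0.47 for TUBG1 and -0.26 for the sum. TUBA8 had -0.47 and 0.99, a difference of 1.46, at levels under 0.5 FPKM. ATAT1, listed at 0 in SW1736-PTX, had a difference of 6.39, whose size depends on the pseudocount of 0.1 and is no bound.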

How the results depend on the processing

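No paired analysis was possible because within a line 1 library is compared with 1 and the result comes from no test, and no library could be left out of such a pair. A fit of PTX against wt cells with the line as a block would take the lines as replicates and was not run. The calls of members numbered 1 in SW1736 and 2 in 8505C at each pseudocount, unit, minimum and centring tried, and at a limit of 2. At a limit of 1 they numbered 3 in each line. The alpha-tubulin log2 change was -0.89 in SW1736 and -0.95 in 8505C on TPM, -0.85 and -1.02 after centring on the median of all genes, and -0.89 for SW1736-PTX against 8505C wt. The gamma-tubulin log2 change was 0.45 in SW1736 on TPM and -0.54 in 8505C after centring. Against 8505C wt, SW1736-PTX gave reversed signs for the gamma-tubulin sum (-0.26), TUBG1 (-0.47), TUBA4A (0.50) and TUBA8 (0.91, at levels under the minimum), because of the levels of these genes in that wt library.

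On coverage in place of FPKM, the shares of alpha-tubulin in SW1736 wt, SW1736-PTX, 8505C wt and 8505C-PTX were 2.41%, 11.6%, 2.29% and 15.1% for TUBA1A, 81.9%, 77.0%, 83.3% and 74.7% for TUBA1B, and 11.9%, 10.8%, 14.2% and 10.1% for TUBA1C. The cause was not tested. The denominator with every alpha-tubulin name and the highest entry per name moved no value beyond its counting error. A pseudocount of 1 moved 2 of 20 values and one of 0.01 none. Among the members, counting error was large relative to the level for TUBA8 only. The chief limits are the single libraries, the shared reads among close relatives and the resemblance of SW1736-PTX to 8505C.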

Other observations

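Between the wt libraries, 8505C stood near SW1736 for TUBA1A, TUBA1B and TUBA1C, with log2 differences (8505C minus SW1736) of -0.14, 0.02 and 0.25. TUBA4A was far lower in 8505C wt, at -3.79, which was past the limit of 1.5 on FPKM, and TUBG1 and TUBG2 were higher, at 0.79 and 0.55. Between the PTX libraries, 5 of the 6 genes above the minimum differed by less than 0.5 on the log2 scale: TUBA1A (0.41), TUBA1B (-0.05), TUBA1C (-0.11), TUBG1 (-0.29) and TUBG2 (0.09). TUBA4A remained lower in 8505C-PTX, at -2.67.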
